A study of Peromyscus polionotus with 11 samples.

Results

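Gene expression was compared between a pair of connected forebrain nuclei of the oldfield mouse (Peromyscus polionotus), a North American relative of the deer mouse, kept in long days. The comparison set 3 samples of the bed nucleus of the stria terminalis (called the bed nucleus here) against 3 samples of the medial preoptic area. These 6 samples were chosen by nucleus and day length as the labels give them, out of 11 in the series. The other 5 came from mice in short days (2 of the bed nucleus and 3 of the preoptic area). They carried no weight in the difference and only added to the estimate of the spread between arrays. The labels name no strain, genotype, sex, age or hours of light, and they do not say how many animals gave a sample. Tissue was taken as micropunches, and total RNA was labelled with biotin and hybridised to 1 array per sample. The series text calls the samples independent, but nothing ties a sample to an animal, so p-values measure only the spread between these samples.

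The medial preoptic area lies at the front of the hypothalamus and takes part in parental and sexual behaviour, body temperature and sleep. Many of its neurons are inhibitory and carry peptides such as galanin or receptors for sex steroids. The bed nucleus belongs to the extended amygdala, lies beneath the lateral ventricle next to the striatum and septum, and links the amygdala with the hypothalamus in anxiety, stress and social behaviour. A punch holds neurons, glia, vessels and any neighbouring tissue it takes in.

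Each value is the linear intensity of a probe set on an array designed for the house mouse. Every array had a median intensity of 19, with lower quartiles of 13 to 14 and upper quartiles of 33 to 35. Sequence differences between the species can lower a probe set's signal by an unknown amount, so levels of different genes were not ranked. Where the intensities of a gene list are summed, bright probe sets weigh most. Arrays of the same nucleus correlated at a Pearson r of 0.982 to 0.986 across probe sets on the log2 scale, and arrays of different nuclei at 0.976 to 0.984. The first principal component of the 6 arrays held 33.1% of the variance. Along it the preoptic arrays 1, 2 and 3 lay at -15.7, -9.88 and -15.9 and the bed nucleus arrays 1, 2 and 3 at 22.8, 17.0 and 1.74. The nuclei did not overlap on this axis, and bed nucleus array 3 was the closest to the preoptic arrays.

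Markers of inhibitory ventral forebrain neurons were above the array median on all 6 arrays. The GABA-synthesising enzymes Gad1 and Gad2 read 256 to 358 and 334 to 423, the vesicular GABA transporter Slc32a1 561 to 862, and the LIM factor Isl1 1479 to 2214. Esr1, the oestrogen receptor alpha for which both nuclei are known, read 9 to 13, below the median on every array. Neurod6, a factor of cortical pyramidal neurons, read 10 to 14, but it does not stand for its class. Of 16 measured cortical and hippocampal pyramidal markers, 12 had a mean over all 11 arrays above the array median, against 7464 of all 12393 genes. The levels of the genes named here did not separate the nuclei, with the exception of Slc32a1. It was 709, 862 and 716 in the preoptic area and 617, 561 and 664 in the bed nucleus (-0.31 ± 0.14 on the log2 scale, SE), which did not pass.

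Of 22626 probe sets, 29 differed between the nuclei past a Benjamini-Hochberg adjusted p of 0.05 in limma's moderated linear model, which is 0.128% of those tested. In the bed nucleus 19 were higher (0.084%) and 10 lower (0.0442%). They carried 14 named genes that were higher in the bed nucleus and 7 that were lower, and 5 of the probe sets had no single gene symbol. On all 29, the 3 arrays of one nucleus lay above the 3 arrays of the other. Over all probe sets, this held with the bed nucleus higher for 6.69% and with it lower for 5.5%. Their differences, bed nucleus minus preoptic area, ran from 0.70 to 1.81 on the log2 scale for the higher and from -2.03 to -0.68 for the lower probe sets. The median absolute difference over all probe sets was 0.12, and 17 of them (0.0751%) differed by more than 1. An unadjusted p under 0.05 was seen for 2374 probe sets (10.5%).

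The count depended on which arrays were used. Leaving out long-day preoptic array 1, 2 or 3 gave 13, 8 or 11 probe sets. Leaving out long-day bed nucleus array 1, 2 or 3 gave 11, 10 or 52. Dropping short-day preoptic array 4, 5 or 6, which inform only the spread, gave 18, 16 or 50. On the 6 long-day arrays alone 2 probe sets passed, one of Lhx2 and one of Vim.

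**Figure D1:**
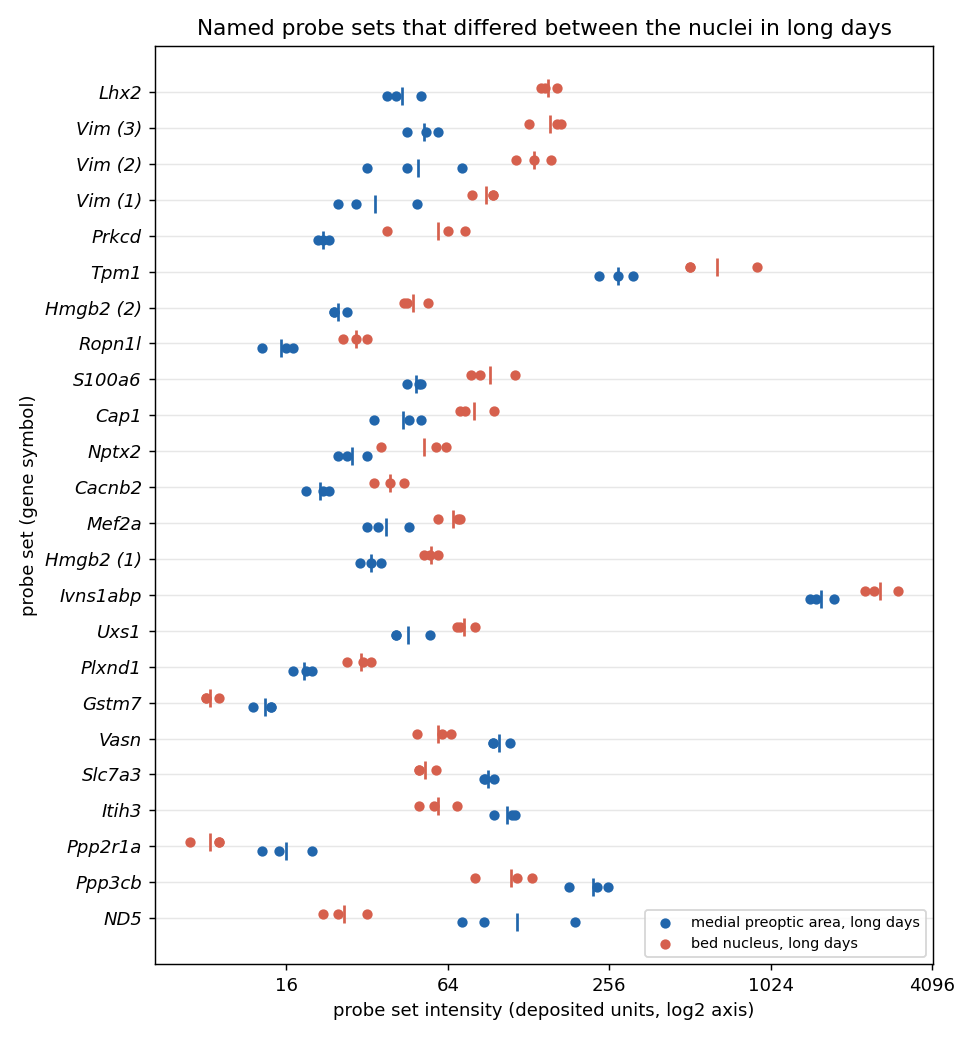
Intensity (log2 axis, deposited units) of the 24 probe sets with 1 gene symbol that passed, on the 3 long-day preoptic arrays (blue) and the 3 long-day bed nucleus arrays (red). Points are arrays, and a number in brackets tells apart probe sets of 1 gene. In each row the colours are fully separated, as for Lhx2 (38 to 51 against 143 to 163) and ND5 (72 to 190 against 22 to 32).

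Lhx2, a LIM homeodomain transcription factor that patterns the forebrain, had the smallest p of all probe sets. It read 41, 51 and 38 on the preoptic arrays 1, 2 and 3 and 148, 143 and 163 on the bed nucleus arrays 1, 2 and 3. Every bed nucleus array was far above every preoptic array, and arrays of the same nucleus lay close together. The means were 151 ± 10.4 (SD, n = 3) and 43.3 ± 6.81 (SD, n = 3), which differ by 1.81 ± 0.15 (SE) on the log2 scale or 3.51-fold (adjusted p = 1.89e-06, limma). The call held when any of the 11 arrays was left out. In such bulk samples, more cells that express a gene and more RNA per cell cannot be told apart.

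Some other LIM factors were measured lower in the bed nucleus, without passing. Lhx1, a factor of diencephalic neurons, read 45, 54 and 60 in the preoptic area and 20, 35 and 34 in the bed nucleus (-0.87 ± 0.18, adjusted p = 0.0542, limma). A dimmer Lhx1 probe set gave 0.24. Lhx8, needed for basal forebrain cholinergic neurons, read 17, 19 and 31 against 14, 14 and 13 (-0.66 ± 0.19), or -0.40 without preoptic array 3. Lhx6, a factor of interneurons from the medial ganglionic eminence, read 58, 48 and 50 against 45, 34 and 39 (-0.41 ± 0.15). In these 3 the nuclei did not overlap on the probe sets listed by array. Lmo2, counted with the LIM factors and their partners, went the other way. It read 14, 15 and 14 against 20, 23 and 20 (0.55 ± 0.14), without overlap and without passing.

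Of 17 measured LIM factors and partners, 12 had a difference above 0 and 5 below, with a median of 0.11, and Lhx2 alone passed. The nuclei were apart with the bed nucleus higher for 3 of them and lower for 3. Over all 12393 genes, taken at the probe set with the highest mean, 53.5% were above 0 and 46.4% below, with a median of 0.01. At that level 0.105% of genes passed as higher in the bed nucleus and 0.0403% as lower. The nuclei did not overlap, with the bed nucleus higher, for 7.25% of genes, and with it lower for 5.47%. The counts for every gene list below are to be read against these shares.

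Mef2a, a MADS box transcription factor of neurons and muscle, was higher in the bed nucleus. The probe set that passed read 46, 32 and 35 in the preoptic area and 71, 70 and 59 in the bed nucleus (0.84 ± 0.15, adjusted p = 0.0238, limma). The other Mef2a probe sets gave 0.71, 0.61, 0.58 and 0.16. The call was lost without preoptic array 2 or 3 or bed nucleus array 1 or 2. All pointed the same way, and only the dimmest had nuclei that overlapped. Its relative Mef2c read 340, 238 and 236 against 499, 501 and 340 (0.72 ± 0.19, adjusted p = 0.157, limma), so that the highest preoptic and the lowest bed nucleus array were level.

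Among 46 other forebrain transcription factors, 31 had a difference above 0 and 15 below, with a median of 0.10. The nuclei were apart with the bed nucleus higher for 8 and lower for 3. Erf, an ETS-family repressor, read 227, 161 and 189 against 424, 283 and 277 (0.76 ± 0.21). Npas3, a bHLH-PAS factor, read 143, 182 and 161 against 89, 118 and 111 (-0.62 ± 0.17). Neither passed, although in both the nuclei did not overlap. None of the 46 passed at the probe set with the highest mean, and Mef2a was the 1 gene that passed at any.

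Vim, the intermediate filament vimentin of ependyma, immature glia and vessels, was higher in the bed nucleus on all of its probe sets. The probe set with the highest mean read 45, 59 and 53 in the preoptic area and 128, 164 and 169 in the bed nucleus. The lowest bed nucleus array was well above the highest preoptic array. The means were 154 ± 22.4 (SD, n = 3) and 52.3 ± 7.02 (SD, n = 3), which differ by 1.55 ± 0.18 (SE) on the log2 scale or 2.93-fold (adjusted p = 3.61e-04, limma). The other Vim probe sets gave 1.51 and 1.43 and passed as well. Leaving out any of the 11 arrays kept the call for the first and for the probe set at 1.43. The probe set at 1.51 lost its call without long-day preoptic array 1 or 3 or bed nucleus array 2.

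A chromatin protein, a cilia protein and a calcium-binding protein were higher with it. Hmgb2, a chromatin protein abundant in dividing cells, read 24, 27 and 24 against 54, 45 and 44 on one probe set (0.93 ± 0.16, adjusted p = 0.0193, limma) and gave 0.75 on the other, which also passed. Ropn1l, ropporin-1-like, a protein of motile cilia and flagella, was dim at 13, 16 and 17 against 32, 29 and 26 (0.92 ± 0.14, adjusted p = 0.00693, limma). S100a6, of the S100 calcium-binding family, read 51, 45 and 50 against 114, 78 and 84 (0.90 ± 0.14, adjusted p = 0.00962, limma). Each had all bed nucleus arrays above all preoptic arrays. Both Hmgb2 calls were lost without any 1 of the long-day arrays other than bed nucleus array 3. The Ropn1l call was lost without preoptic array 1 (or bed nucleus array 1), and that of S100a6 without preoptic array 2 or 3 or bed nucleus array 1.

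Of 14 ependymal and choroid plexus markers, 11 had a difference above 0 and 3 below, with a median of 0.24, and Vim alone passed. Their summed level was 575 to 854 on the preoptic arrays and 974 to 1328 on the bed nucleus arrays. Cd24a, a surface protein of ependyma and neuroblasts, made up 45.0% to 64.6% of it, at 470, 509 and 259 against 813, 474 and 857 (0.80 ± 0.24). Bed nucleus array 2 lay within the preoptic range for Cd24a, and without preoptic array 3 its difference was 0.50. The sums without Cd24a were 316 to 345 and 445 to 500. Foxj1, the regulator of motile cilia, was near the bottom of the scale in both nuclei at 8 to 12. Ttr, transthyretin of choroid plexus, read 50 to 60 in the preoptic area and 58 to 81 in the bed nucleus, and 2 dimmer Ttr probe sets each gave -0.75. Rsph1, a radial spoke protein of cilia, read 21, 18 and 19 against 28, 34 and 26 (0.60 ± 0.13, adjusted p = 0.0908, limma). The part of ventricular lining in the Vim and Ropn1l differences was not tested.

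Of 23 neuroblast and progenitor markers, some of them shared with the former list, 17 had a difference above 0 and 6 below, with a median of 0.11, and Vim and Hmgb2 passed. Their summed level was 5332 to 5503 in the preoptic area and 5511 to 6476 in the bed nucleus. Sox4, a factor of immature neurons, read 218, 278 and 210 against 273, 302 and 359 (0.41 ± 0.14). The neuroblast marker Dcx gave -0.11 and the proliferation marker Mki67, at 9 to 13, gave -0.13. So members of the list differed in direction, and the part of immature cells in the Hmgb2 difference was not tested.

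**Figure D2:**
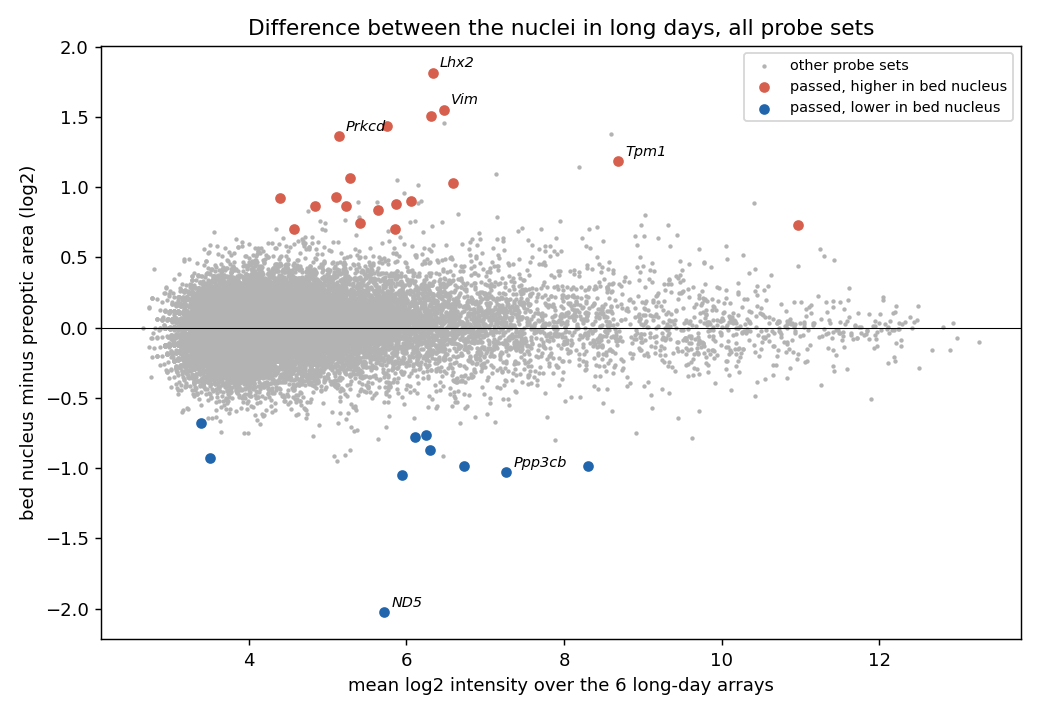
Log2 difference between the nuclei in long days (bed nucleus minus preoptic area) against the mean log2 intensity for the 22626 probe sets tested. The 29 probe sets that passed are coloured, 19 higher and 10 lower in the bed nucleus, and most others lie close to 0.

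Prkcd, protein kinase C delta, marks a class of inhibitory neurons in the central amygdala and the oval part of the bed nucleus. It read 21, 23 and 22 in the preoptic area and 38, 74 and 64 in the bed nucleus. The preoptic arrays were almost level, and bed nucleus array 1, the lowest of its group, was still above all of them. The log2 difference was 1.36 ± 0.20 (SE, adjusted p = 0.00693, limma) or 2.57-fold. The call was lost without bed nucleus array 2 (adjusted p = 0.0710, limma). Bed nucleus array 2 was the highest and array 1 the lowest of its group, as in the markers of neighbouring regions Slc17a6, Zic1 and Tcf7l2 given below. The part of neighbouring tissue in the Prkcd difference was not tested.

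The extended amygdala markers as a list were divided in direction. Of 24, 13 had a difference above 0 and 11 below, with a median of 0.02, and Prkcd alone passed. The peptide precursor Adcyap1 read 19, 23 and 19 against 13, 16 and 14 (-0.50 ± 0.16), and Vip 24, 20 and 23 against 16, 14 and 20 (-0.43 ± 0.16). Sst, somatostatin, read 484, 603 and 358 against 552, 625 and 714 (0.41 ± 0.24), with overlap, or 0.21 without preoptic array 3. The list's summed level, Prkcd included, was 1107 to 1480 in the preoptic area and 1554 to 1639 in the bed nucleus. Sst made up 32.3% to 44.4% of it, and without Sst the sums were 749 to 877 and 893 to 1087.

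Ppp3cb, a catalytic subunit of the calcium-activated phosphatase calcineurin, was lower in the bed nucleus. It read 181, 231 and 253 in the preoptic area and 81, 132 and 116 in the bed nucleus, without overlap (-1.03 ± 0.19, adjusted p = 0.0289, limma). A dimmer Ppp3cb probe set gave 0.34, so the probe sets disagreed. The Ppp3cb call was lost without long-day preoptic array 2 or 3, short-day preoptic array 5 or bed nucleus array 1. Ppp2r1a, the scaffold subunit of protein phosphatase 2A, passed on a probe set below the array median, at 20, 15 and 13 against 9, 9 and 7 (-0.93 ± 0.16, adjusted p = 0.0225, limma). The brightest Ppp2r1a probe set read 507, 363 and 648 against 555, 844 and 592 and gave 0.41, the other way. The 3 further probe sets, all dim, gave -0.57, -0.35 and -0.23. The Ppp2r1a call was lost without preoptic array 1 or 2 or any 1 of the bed nucleus arrays.

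Of 46 genes of calcium, kinase and phosphatase signalling, 25 had a difference above 0 and 21 below, with a median of 0.10, and 1 passed in each direction (Prkcd and Ppp3cb). Itpka, an inositol trisphosphate kinase of dendritic spines, read 33, 29 and 30 against 81, 60 and 38 (0.90 ± 0.20, adjusted p = 0.0810, limma). Arpp19, a cyclic AMP-regulated phosphoprotein, read 1324, 938 and 806 against 2497, 1634 and 1544 (0.88 ± 0.22). Camk2g, a calmodulin-dependent kinase subunit, read 244, 328 and 261 against 168, 178 and 186 (-0.64 ± 0.14, adjusted p = 0.0941, limma). None of these 3 passed, though the nuclei did not overlap in any of them.

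Tpm1, the actin-binding tropomyosin 1, read 314, 235 and 275 in the preoptic area and 910, 512 and 510 in the bed nucleus. All bed nucleus arrays were higher, and array 1 stood far above the others. The log2 difference was 1.18 ± 0.19 (SE, adjusted p = 0.00962, limma) or 2.27-fold, and the call was lost without bed nucleus array 1 and without preoptic array 2 or 3. The dimmer Tpm1 probe sets gave 0.16 and 0.05. Cap1, an actin-recycling protein, read 46, 34 and 51 against 71, 95 and 74 (0.88 ± 0.17, adjusted p = 0.0377, limma), and its dim probe set gave 0.03.

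Of 42 genes of actin, spines and the cytoskeleton, 22 had a difference above 0 and 20 below, with a median of 0.02, and Tpm1 alone passed. Kalrn, a protein of dendritic spines, read 69, 51 and 43 against 121, 95 and 86 (0.90 ± 0.21, adjusted p = 0.102, limma). Shank3, a postsynaptic scaffold, read 96, 116 and 81 against 170, 138 and 131 (0.59 ± 0.16). Neither passed, and neither overlapped.

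Cacnb2, an auxiliary subunit of voltage-gated calcium channels, read 22, 19 and 23 in the preoptic area and 39, 44 and 34 in the bed nucleus (0.87 ± 0.17, adjusted p = 0.0401, limma). Nptx2, a pentraxin that clusters AMPA receptors, read 27, 32 and 25 against 36, 63 and 58 (0.87 ± 0.17, adjusted p = 0.0436, limma), and a dimmer probe set gave -0.13. Plxnd1, a semaphorin receptor, read 17, 19 and 20 against 31, 33 and 27 (0.70 ± 0.13, adjusted p = 0.0377, limma). In all 3 the bed nucleus arrays were the higher ones, and in Nptx2 array 1 was close to the preoptic range. Of the 11 fits that left out an array, Cacnb2 and Plxnd1 each kept their call in 4, Cap1 in 3 and Nptx2 in 2.

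Genes of the same classes differed in both directions without passing. Grik1, a kainate receptor subunit, read 131, 138 and 121 in the preoptic area and 76, 94 and 75 in the bed nucleus (-0.68 ± 0.16, adjusted p = 0.106, limma). The AMPA receptor subunit Gria3 read 161, 103 and 160 against 348, 204 and 163 (0.71 ± 0.22), or 0.40 without bed nucleus array 1. Of 23 genes of glutamate transport and receptors, 16 had a difference above 0 and 7 below (median 0.07). Of 26 calcium, sodium and HCN channel genes, 11 were above 0 and 15 below (median -0.06). Of 40 potassium channel genes, 28 were above 0 and 12 below (median 0.07) and none passed; Kcnab1 gave 0.66 and Kcnc4 -0.63. Of 54 genes of axon guidance and cell adhesion, 26 were above 0 and 28 below (median -0.01).

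Among the probe sets that passed, the largest difference was in ND5, the mitochondrially encoded subunit of respiratory complex I. It read 190, 87 and 72 in the preoptic area and 32, 22 and 25 in the bed nucleus. The preoptic arrays were spread widely, with array 1 the highest, but none came down to the bed nucleus arrays. The log2 difference was -2.03 ± 0.33 (SE, adjusted p = 0.00962, limma), and the call was lost without preoptic array 1 and without bed nucleus array 2.

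The remaining genes that were lower in the bed nucleus act in transport, matrix and detoxification. Slc7a3, a transporter of cationic amino acids, read 95, 87 and 88 against 50, 50 and 58 (-0.78 ± 0.15, adjusted p = 0.0377, limma). Itih3, a heavy chain of the inter-alpha-trypsin inhibitor that binds hyaluronan, read 95, 114 and 111 against 50, 69 and 57 (-0.87 ± 0.17, adjusted p = 0.0377, limma). In both, the nuclei were clearly apart. Vasn, which binds TGF-beta, gave -0.76, with a dimmer probe set at 0.24, and Gstm7, a glutathione transferase, gave -0.68 at 8 to 14, under the array median, and -0.38 on a brighter probe set. Among the higher genes, Ivns1abp, a kelch-family protein, read 1754, 1437 and 1513 against 3051, 2295 and 2478 (0.73 ± 0.14, adjusted p = 0.0438, limma). Its dimmer probe sets gave 0.15, with overlap, and 0.00. Uxs1, which makes UDP-xylose for proteoglycans, read 55, 41 and 41 against 71, 81 and 69 (0.70 ± 0.14, adjusted p = 0.0413, limma), and its dim probe set gave 0.34. Of these 6, Slc7a3 kept its call in 4 of 11 fits that left out an array and the others in 1 or 2.

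Markers of medium spiny neurons, the main cell type of the neighbouring striatum, were measured higher in the bed nucleus almost throughout. Of 25, 24 had a difference above 0 and 1 below, with a median of 0.33. The nuclei did not overlap, with the bed nucleus higher, for 12 of 25, and none passed. Rasd2, a striatal small GTPase, read 59, 46 and 52 in the preoptic area and 151, 80 and 74 in the bed nucleus (0.89 ± 0.22, adjusted p = 0.126, limma). Rasgrp2 read 124, 105 and 135 against 292, 143 and 152 (0.62 ± 0.19), and Bcl11b, a factor of striatal projection neurons, 46, 49 and 51 against 101, 63 and 54 (0.53 ± 0.24). In each of these, bed nucleus array 1 was by far the highest. Without it the differences of Rasd2, Rasgrp2 and Bcl11b were 0.56, 0.29 and 0.26. Other markers were apart without array 1 standing out. Hpca read 25, 21 and 26 against 39, 36 and 31 (0.56 ± 0.16). The brightest Foxp1 probe set read 2615, 2017 and 1805 against 3097, 3293 and 2697 (0.51 ± 0.15). A dimmer Foxp1 probe set, highest on array 1, gave 1.02. The defining markers Ppp1r1b (DARPP-32) and Drd2, the dopamine D2 receptor, were dim: Ppp1r1b read 22, 17 and 15 against 29, 23 and 20, and Drd2 16, 14 and 13 against 15, 15 and 13.

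Bed nucleus array 1 was the highest of the 6 arrays for 19 of the 25 markers. It lay above the mean of the other bed nucleus arrays for 23 of 25, with a median of 0.28 on the log2 scale, against 53.4% of all genes and a median of 0.01. Without it the list's median difference between the nuclei was 0.19, with 23 markers above 0 and 2 below. The list's summed level was 2788 to 3698 on the preoptic arrays and 3826 to 4806 on the bed nucleus arrays. Foxp1 alone made up 64.4% to 73.8% of it, and without Foxp1 the sums were 974 to 1083 and 1129 to 1709. The part of striatal tissue in the differences named above was not tested.

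**Figure D3:**
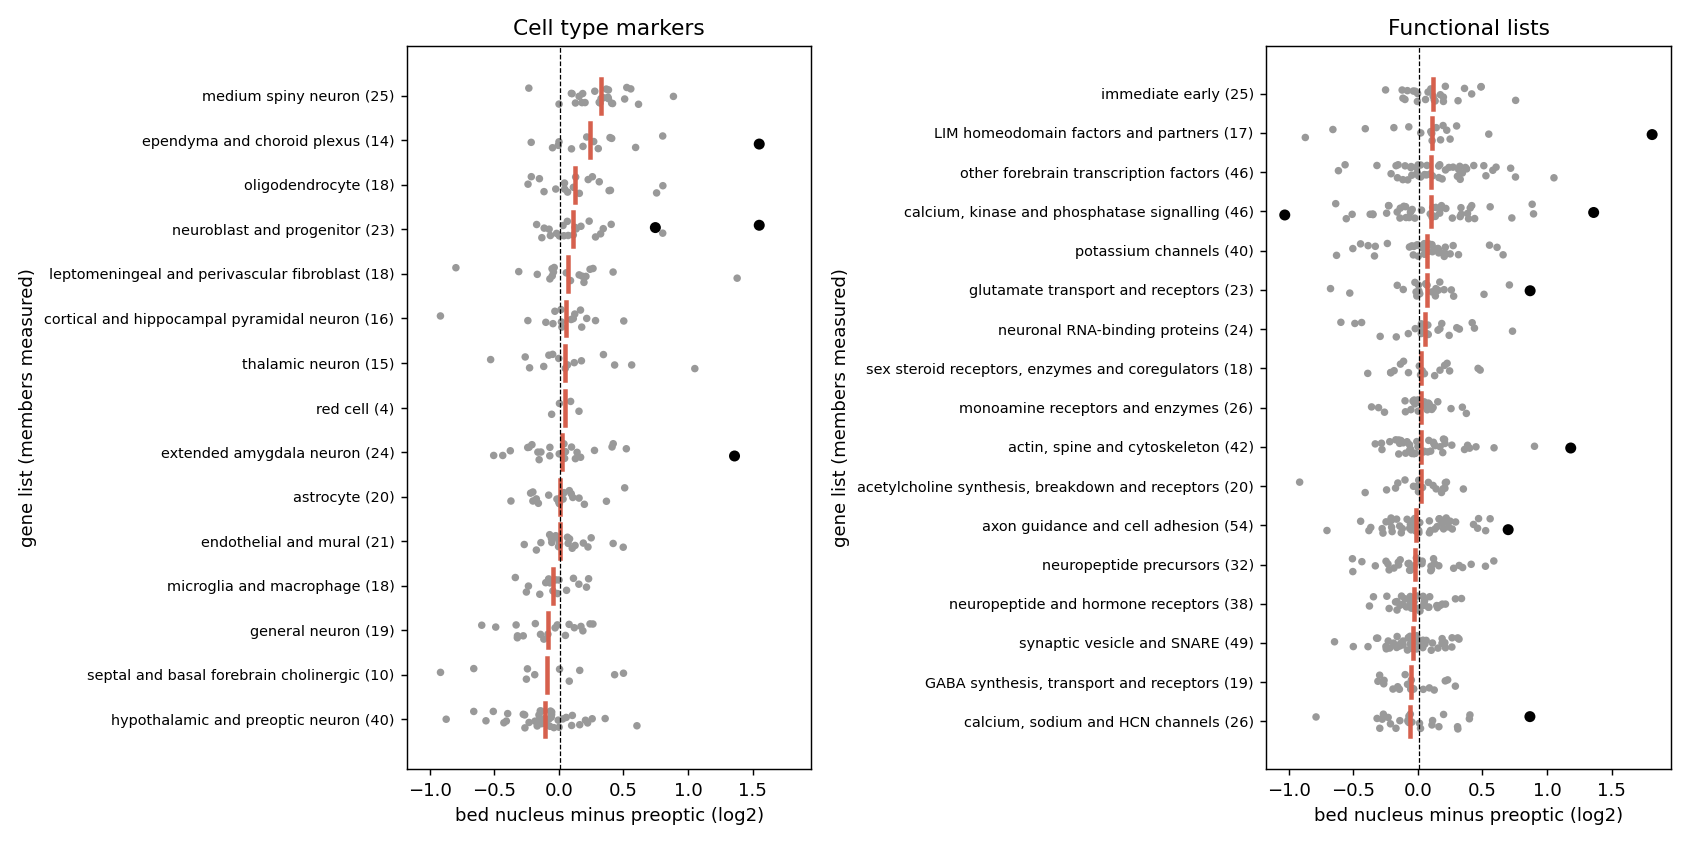
Log2 difference between the nuclei in long days for every measured member of the gene lists, 1 point per gene; large black points passed, red bars are list medians and the dashed line is the median of all genes. The medium spiny neuron list has the highest median (0.33), and the hypothalamic and preoptic list lies below 0 (-0.10).

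Markers of hypothalamic and preoptic neurons were mostly measured lower in the bed nucleus. Of 40, 11 had a difference above 0 and 29 below, with a median of -0.10. The nuclei did not overlap, with the bed nucleus lower, for 13 of 40 and with it higher for 2, and none passed. Gal, the precursor of galanin, read 93, 99 and 95 in the preoptic area and 67, 65 and 70 in the bed nucleus (-0.51 ± 0.14, adjusted p = 0.182, limma). The arrays of each nucleus were tightly grouped. Ndn, the imprinted gene necdin, read 2542, 3375 and 2635 against 2255, 1929 and 2235 (-0.41 ± 0.15), and Peg10, another imprinted gene, 68, 61 and 60 against 52, 43 and 46 (-0.42 ± 0.12). Otp, a homeodomain factor of neuroendocrine hypothalamus, went the other way at 20, 21 and 23 against 34, 40 and 25 (0.61 ± 0.17). The list's summed level was 4036 to 4966 in the preoptic area and 3257 to 3655 in the bed nucleus. Ndn alone made up 59.2% to 68.0% of it, and without Ndn the sums were 1437 to 1591 and 1291 to 1400.

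Sex steroid receptors and the neurohypophysial peptides showed small differences. Esr1 gave -0.13 ± 0.15, Esr2 0.21 ± 0.14 and Pgr, the progesterone receptor, -0.18 ± 0.14. Oxt, oxytocin, read 84, 88 and 80 against 85, 80 and 77 (-0.06 ± 0.14), and Avp, vasopressin, 43, 53 and 45 against 60, 48 and 38 (0.03 ± 0.15). All of these overlapped between the nuclei, and Esr1 and Pgr were below or near the array median. Of 18 genes of sex steroid signalling, 11 had a difference above 0 and 7 below (median 0.03). Of 32 neuropeptide precursors, 14 were above 0 and 18 below (median -0.02), and of 38 peptide and hormone receptors 17 were above and 21 below (median -0.03). None of the 3 lists had a member that passed.

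Ache, the enzyme that breaks down acetylcholine, read 86, 173 and 121 in the preoptic area and 68, 68 and 58 in the bed nucleus (-0.92 ± 0.19, adjusted p = 0.0720, limma). The preoptic arrays were scattered and the bed nucleus arrays level, with no overlap. Of 20 genes of acetylcholine synthesis, breakdown and receptors, 12 had a difference above 0 and 8 below (median 0.02). Of 26 monoamine genes, 16 were above 0 and 10 below (median 0.03), and of 19 GABA genes 6 were above and 13 below (median -0.06). General neuron markers were 7 above 0 and 12 below (median -0.08), with a summed level of 6455 to 7321 in the preoptic area and 4798 to 6315 in the bed nucleus. The RNA-binding protein Elavl2 read 1599, 1760 and 1549 against 818, 1434 and 1347 (-0.49 ± 0.17), lowest on bed nucleus array 1, and gave -0.23 without that array. Elavl2 made up 17.0% to 24.8% of the summed level of general neuron markers. Without Elavl2 the sums overlapped, at 4856 to 5561 in the preoptic area and 3980 to 4881 in the bed nucleus.

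**Figure D4:**
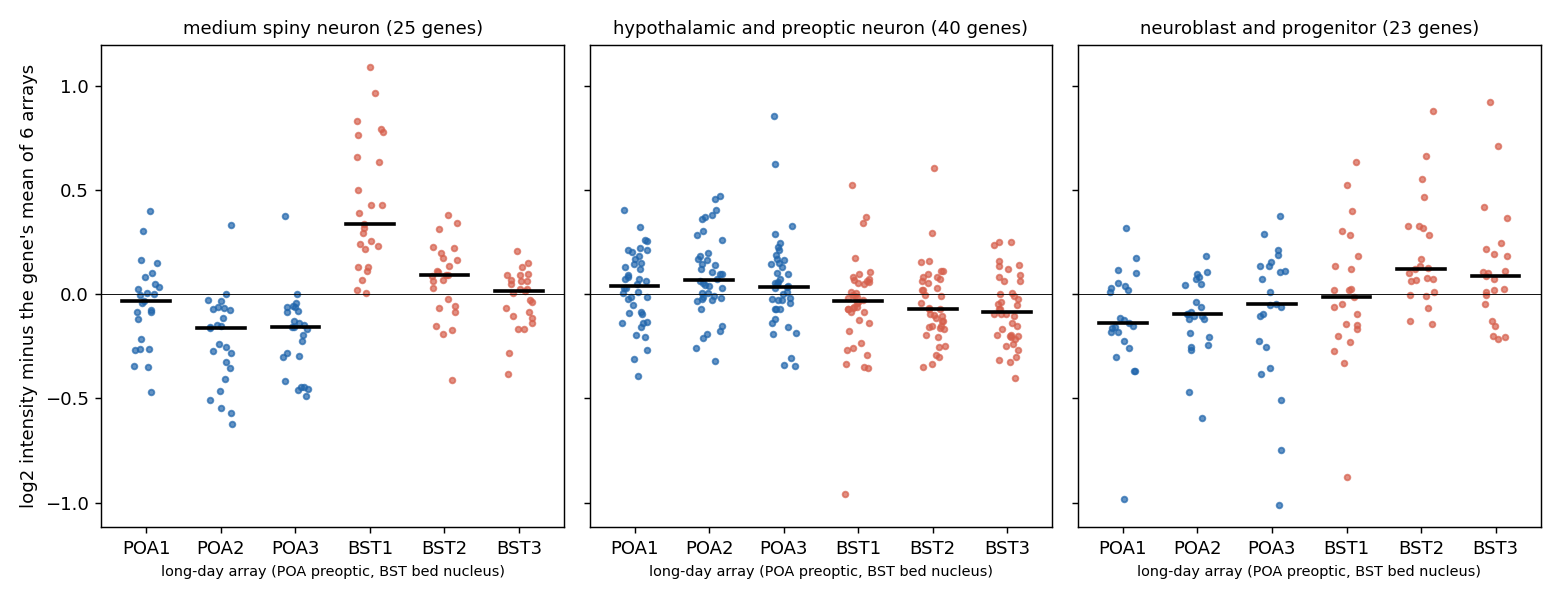
Log2 intensity minus the gene's mean over the 6 long-day arrays (vertical axis) on each array, for markers of medium spiny neurons (25 genes), hypothalamic and preoptic neurons (40) and neuroblasts and progenitors (23); points are genes and bars are medians. In the first panel bed nucleus array 1 stands highest, as it did for 19 of the 25 markers.

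Some markers of neighbouring regions varied more among the bed nucleus arrays than between the nuclei. Slc17a6, the vesicular glutamate transporter of thalamus and hypothalamus, read 48, 84 and 70 in the preoptic area and 11, 136 and 63 in the bed nucleus. Zic1, a factor of septum and thalamus, read 364, 424 and 478 against 278, 975 and 669, and Tcf7l2, a thalamic factor, 29, 54 and 44 against 48, 141 and 91 (1.05 ± 0.28, adjusted p = 0.170, limma). Without bed nucleus array 2 the difference of Tcf7l2 was 0.69 and that of Zic1 0.040, and without array 1 that of Slc17a6 was 0.50. In all 3 genes, bed nucleus array 2 was the highest and array 1 the lowest of the bed nucleus arrays. The summed level of 15 thalamic markers was 692, 1753 and 1245 on the bed nucleus arrays 1, 2 and 3 and 811 to 996 on the preoptic arrays, of which Zic1 made up 40.2% to 55.6%. Counted over all probe sets, 23, 19 and 7 differed by more than 1 on the log2 scale from the mean of the other bed nucleus arrays on arrays 1, 2 and 3.

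Glial, vascular and meningeal markers had no member that passed. Of 18 oligodendrocyte markers 13 had a difference above 0 and 5 below (median 0.12); the myelin gene Mobp read 18, 27 and 25 against 44, 46 and 29 (0.76 ± 0.18). Astrocyte markers were 12 above 0 and 8 below (median 0.01), microglial markers 6 and 12 (median -0.05), and endothelial and mural markers 12 and 9 (median 0.01). Of 18 fibroblast markers 10 were above 0 and 8 below (median 0.07), with Ptgds, the prostaglandin D synthase of meninges and choroid plexus, at 204, 308 and 222 against 889, 574 and 483 (1.38 ± 0.30, adjusted p = 0.0742, limma) and Sparc, a matrix protein, at 64, 73 and 61 against 34, 50 and 32 (-0.80 ± 0.19). These 2 were apart in opposite directions.

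The same difference between nuclei could be set beside that in short days, whose means came from other arrays. The spread of each probe set was estimated once, over arrays of both day lengths, and used in both tests. Of the 29 probe sets, 24 had the same sign in short days (82.8%), against 52.9% of all probe sets. Vim and Hmgb2 each count with more than 1 probe set among the 29. Of the 29, 7 passed in short days too, where 80 of all probe sets passed (0.354%). A low shared spread favours passing in both tests, so the 7 are not a check on separate data. Tpm1 (1.18 in long and 1.29 in short days), Ppp3cb (-1.03 and -1.31), Mef2a (0.84 and 0.91) and Slc7a3 (-0.78 and -0.78) were among those 7. Others of the 29 were unlike: Lhx2 gave 1.81 in long and 0.63 in short days, Ropn1l 0.92 and -0.20, Nptx2 0.87 and -0.42, and ND5 -2.03 and 0.02. The Vim probe sets gave 1.55, 1.51 and 1.43 in long days and 0.37, 1.21 and 0.67 in short days, where the nuclei overlapped on the first. The Hmgb2 probe sets gave 0.93 and 0.75 in long days and -0.10 and 0.02 in short days. Ptgds, which did not pass in long days, gave 1.38 and -0.92. On the short-day arrays Lhx2 read 38, 49 and 35 in the preoptic area and 60 and 65 in the bed nucleus. The test of the difference between day lengths passed for no probe set in limma (0%, against 1888 or 8.34% with an unadjusted p under 0.05), so none of these contrasts is shown to depend on day length. Leaving out long-day bed nucleus array 1 gave 5 probe sets that passed. In short days the medium spiny neuron list had a median of 0.66, with 23 markers above 0 and 2 below. The hypothalamic and preoptic list had -0.15 (11 above and 29 below). The ependymal and choroid plexus list had 0.02 (8 and 6) and the neuroblast and progenitor list 0.01 (12 and 11). The median of all genes was -0.01.

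**Figure D5:**
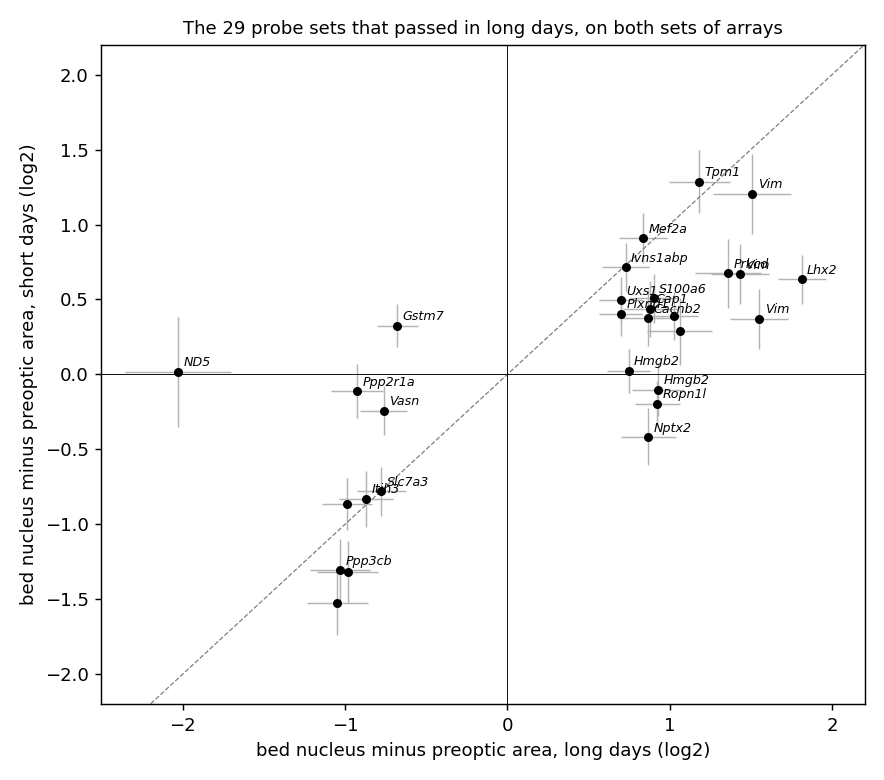
Log2 difference between bed nucleus and preoptic area in long days (horizontal axis) and short days (vertical axis) for the 29 probe sets that passed in long days; bars are standard errors and the dashed line marks equal differences. Tpm1 (1.18 and 1.29) lies near that line and ND5 (-2.03 and 0.02) far from it.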

How the data were processed

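Values were available for 11 arrays, 1 per sample, and samples were grouped by their descriptions. The authors deposited linear intensities per probe set, made with RMA 3.4 per the submitters' processing notes. Other processing was not given in the sources used here. They are whole numbers from 5 to 10542, and a step of 1 unit is 0.07 on the log2 scale at the median of 19. The number of arrays limits the precision. Of 22690 probe sets, 64 controls were set aside. Names came from the platform annotation: 20380 of the tested probe sets have 1 gene symbol, 691 several and 1555 none, and only the first were named.

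The log2 of the deposited intensities was fitted with limma 3.58.1 in R 4.3.3, with 4 group means over 11 arrays (7 residual and 12.9 prior degrees of freedom), two-sided, and Benjamini-Hochberg adjustment over 22626 probe sets. With 3 against 3 arrays an exact permutation test could not go below 0.1. A gene in a list was taken at its probe set with the highest mean over all arrays. Genes named are those that passed, filled to 40 by the smallest p, the list members with the smallest p, and a fixed set of regional markers. The comparison, members and lists were chosen with earlier results of these data known. The fit was tested on simulated data. Alternatives were other normalizations, filters, priors and array subsets. No sequences were used here.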

Additional observations from a re-analysis of the deposited data

How the results depend on the processing

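Against the 29 probe sets that passed, other settings called these totals: 27 after quantile normalization (15 higher and 12 lower, 23 shared), 30 on log2 of the value plus 16 (23 higher and 7 lower, 17 shared), 45 with a trended and robust prior, 60 with array weights, 18 at 1 probe set per gene and 66 at a threshold of 0.10. On the 6 long-day arrays alone 2 passed. Leaving out each array in turn gave 8 to 52, and for the difference between day lengths 0 to 5.

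Same-numbered samples of the nuclei had deviations that correlated at -0.02, 0.01 and 0.07 in long days, so the numbers were not taken to pair samples. With the number as a replicate block 66 passed on all arrays (27 shared), and 0 passed in limma on the 6 long-day arrays alone, where 2348 had an unadjusted p under 0.05. The difference between day lengths stayed at 0 with the block.

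Lhx2 and the Vim probe set with the highest mean kept their calls in 22 of 23 alternatives. The gene values that changed sign were near 0, except that of Slc17a6 (-0.53), whose bed nucleus arrays read 11, 136 and 63. Avp became -0.00700 after quantile normalization and ranged from -0.13 to 0.20 with an array left out. Drd2 became -0.00688 with array weights and -0.028 with noise in place of rounding, and ranged from -0.066 to 0.084 with an array left out. With an array left out Foxj1 ranged from -0.032 to 0.20, Gad1 from -0.19 to 0.054, Gad2 from -0.14 to 0.046 and Slc17a6 from -1.32 to 0.50 (without bed nucleus array 1). The causes were not tested. Dim probe sets near the median of 19 limit small differences.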

Other observations

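Several genes just short of the threshold were also apart between the nuclei. Anp32a, a nuclear phosphoprotein, read 54, 61 and 61 in the preoptic area and 88, 109 and 86 in the bed nucleus (0.68 ± 0.14, adjusted p = 0.0543, limma). Grb10, an imprinted adaptor of insulin signalling, read 665, 689 and 678 against 475, 458 and 433 (-0.57 ± 0.12, adjusted p = 0.0605, limma). Both had arrays of each nucleus close together. Ampd2, an AMP deaminase, gave -0.80, Igfbp4, an IGF-binding protein, -0.71, and the cell cycle inhibitor Cdkn1b 0.75. A Ccnd2 probe set read 37, 37 and 35 against 97, 53 and 60 (0.90 ± 0.19, adjusted p = 0.0668, limma), while a brighter one gave 0.13.

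Of 25 immediate early genes, 16 had a difference above 0 and 9 below (median 0.12), and none passed. Ier5 read 58, 60 and 43 in the preoptic area and 107, 95 and 71 in the bed nucleus (0.76 ± 0.16, adjusted p = 0.0725, limma), and Egr1, an activity-induced factor, 174, 121 and 147 against 214, 217 and 184 (0.49 ± 0.16). Of 24 neuronal RNA-binding proteins, 17 were above 0 and 7 below (median 0.06); the splicing factor Rbfox1 read 413, 381 and 378 against 934, 550 and 531 (0.73 ± 0.18), or 0.47 without bed nucleus array 1. Of 49 synaptic vesicle and SNARE genes, 20 were above 0 and 29 below (median -0.04). Cortical and hippocampal markers were 11 above 0 and 5 below (median 0.06), and septal and cholinergic markers 5 and 5 (median -0.09).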
